A study of Mus musculus with 6 samples.

Results

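The BCL2 family genes Bax, Bak1, Bcl2, Bcl2l1, Bcl2l11, Mcl1, Bid and Bbc3 were followed in the cortex of mice that had lost and regained their microglia. They were chosen by symbol for their place in the mitochondrial pathway of apoptosis, and all 8 were found among the 23366 genes of the deposited table and had a mean of at least 0.5 FPKM (fragments per kilobase of transcript, scaled to library size). RNA of frontal cortex was sequenced from 3 control mice, A1, A2 and A3, and 3 microglia-depleted mice, A4, A5 and A6, with 1 library per mouse. The depleted mice were CX3CR1-CreERT2+/- iDTR+/- on a C57BL/6 background and the control mice were CX3CR1-CreERT2+/- littermates without iDTR, so that all 6 mice carried the tamoxifen-inducible Cre. Mice of both genotypes received tamoxifen, which lets Cre release a diphtheria toxin receptor from the iDTR allele. Diphtheria toxin then killed cells that bore the receptor, and cortex was taken at day 10 after depletion, when microglia had returned. Whether the control mice also received the toxin is not given in the sources used here, so toxin and depletion cannot be told apart. Cre was driven by the Cx3cr1 promoter, which is active in microglia and in other CX3CR1-expressing cells. The labels give no age, litter, batch or pairing.

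The proteins of this family decide whether the outer membrane of the mitochondrion stays closed. BCL2, BCL-XL (from Bcl2l1) and MCL1 hold the effectors BAX and BAK (from Bak1) in check, and the BH3-only proteins BIM (from Bcl2l11), BID and PUMA (from Bbc3) release or activate them. Once the effectors form pores, cytochrome c leaves the mitochondrion, binds APAF1 and leads to activation of caspase 9 and then of the executioner caspases. In the brain, BCL-XL is known as a main survival protein of mature neurons, and neurons splice Bak1 into a form of their own, which values per gene do not separate from the other form. Much of the regulation of the family is through protein turnover, binding and cleavage, which RNA does not measure.

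Transcription of the BH3-only genes is known to respond to stress through FOXO factors and p53, so the 250 bases before each RefSeq transcription start were searched on both strands for 4 motifs. The sequences below, from RefSeq on GRCm38.p6, are the windows of the members in which a match was found, and that of Mcl1, the member with the largest moderated t, which held none. Capitals mark the match, a FOXO site in Bcl2l11 and Bbc3 and a p53 half-site in Bax.
Bcl2l11, chr2:128125788-128126037, plus strand: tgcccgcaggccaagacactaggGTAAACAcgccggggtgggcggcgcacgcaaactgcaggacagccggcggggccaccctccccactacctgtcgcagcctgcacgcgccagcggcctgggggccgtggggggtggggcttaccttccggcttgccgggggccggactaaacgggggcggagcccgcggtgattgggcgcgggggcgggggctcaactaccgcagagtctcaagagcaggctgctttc
Bbc3, chr7:16310011-16310260, plus strand: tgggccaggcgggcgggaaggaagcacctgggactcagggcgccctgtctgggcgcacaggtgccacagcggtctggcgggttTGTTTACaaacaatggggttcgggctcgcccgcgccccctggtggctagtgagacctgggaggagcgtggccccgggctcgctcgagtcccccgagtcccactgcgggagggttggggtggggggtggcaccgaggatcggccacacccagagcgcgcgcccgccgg
Bax, chr7:45466899-45467148, minus strand: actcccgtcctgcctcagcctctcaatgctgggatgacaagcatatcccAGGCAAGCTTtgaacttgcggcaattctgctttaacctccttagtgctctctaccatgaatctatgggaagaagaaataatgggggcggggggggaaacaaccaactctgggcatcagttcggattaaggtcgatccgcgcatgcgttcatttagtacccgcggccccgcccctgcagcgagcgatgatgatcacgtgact
Mcl1, chr3:95658471-95658720, plus strand: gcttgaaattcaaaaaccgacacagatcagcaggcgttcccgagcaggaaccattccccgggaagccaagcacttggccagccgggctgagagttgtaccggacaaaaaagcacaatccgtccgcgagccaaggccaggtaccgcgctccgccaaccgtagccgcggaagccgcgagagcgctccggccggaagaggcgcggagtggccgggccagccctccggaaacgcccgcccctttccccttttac
The windows of Bcl2l11, Bax and Mcl1 lie next to or upstream of the first exon of the gene, and the window of Bbc3 lies within the annotated gene, upstream of an internal start. The FOXO letters GTAAACA begin 227 bases before the start of Bcl2l11, and their reverse complement begins 167 bases before that start of Bbc3. They were present in 2 of the 13 windows of the 8 members and in 3.17% of all 32851 windows. The p53 half-site was present 201 bases before the start of Bax, in 1 of 13 member windows and in 7.13% of all windows. The core of the interferon-stimulated response element and the gamma-activated site TTCNNNGAA were in 0 of the 13 member windows, and in 2.98% and 7.02% of all windows. These are matches of letters in a short window, and no binding was measured.

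The libraries differed in depth and in 1 mouse. The spacing of low FPKM values gave about 14.6, 20.4 and 18.3 M fragments for the control mice and 13.7, 7.10 and 11.2 M for the depleted mice, where 10.6 M was nearly as good a solution for A5. Depleted mouse A4 was the highest or the lowest of the 6 mice in 55.1% of the 14385 genes tested, against 23.2% to 38.6% for each other mouse. The summed FPKM of 15 interferon response genes was 32.5 to 45.5 in control mice, 484.3 in A4, 91.8 in A5 and 86.0 in A6, and each of the 15 had a higher depleted mean. Transcripts of 4 Y-linked genes summed to 5.56 FPKM in A4 and to at most 0.16 in the other mice, and Xist was 4.74 FPKM in A3 and 30.9 to 46.7 in the others. Microglia markers summed to 141.7 to 169.3 FPKM in control and to 221.8, 155.8 and 194.4 in A4, A5 and A6. Only 7 of these 11 markers were higher on average in depleted mice, and none was at 0. Neuronal markers summed to 2672 to 2978 in control and 2520 to 2877 in depleted mice, with 4 of 10 higher on average. The 5 layer IV markers were all lower on average, with sums of 28.9 to 30.4 against 22.7 to 29.0 FPKM, as were all 7 oligodendrocyte markers (2962 to 3224 against 2591 to 2681) and all 5 choroid plexus markers (167 to 323.7 against 45.2 to 70.7). Endothelial markers summed to 36.9 to 44.0 in control and 44.8 to 47.7 in depleted mice, without overlap, and erythroid genes to 14.4 in A4 and 57.6 to 105 in the other mice. In bulk tissue, fewer cells of a type and less RNA per cell cannot be told apart.

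Levels of the family in control cortex, which FPKM gives per transcript length, spanned a wide range. Bcl2l1 was the highest at 43.7 ± 0.481 FPKM (SD, n = 3), above Bax at 30.8 ± 1.51 and Mcl1 at 22.8 ± 0.203, and the latter pair overlapped over the 6 mice. Bid at 5.61 ± 0.0551 and Bak1 at 5.48 ± 0.253 also overlapped with each other, and both were below Mcl1 in every mouse. Bcl2 at 3.997 ± 0.0493 was below Bak1 in every mouse and overlapped with Bbc3 at 2.61 ± 0.427, and Bcl2l11 was the lowest at 1.08 ± 0.110 FPKM. No BH3-only gene was among the 3 highest members.

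None of the 8 genes passed the test between control and depleted mice. In limma on log2(FPKM + 1) with Benjamini-Hochberg adjustment over all genes, 0 of 8 had an adjusted p under 0.1. Of all genes tested, 4 did (0.0278%), namely Gm20878, Gm21586, BC002163 and 2700060E02Rik, which belong to no list used here. The 15 interferon response genes, all with a higher depleted mean, were therefore not among them. The paper reports many more genes at this threshold, from a DESeq test on raw counts, which the table used here does not hold. Few calls in this fit are therefore not evidence that few genes changed. At an unadjusted p under 0.05, 0 of 8 passed against 10.5% of all genes. The paper located apoptotic neurons at day 10 in layer IV of the somatosensory cortex, whereas the RNA here came from bulk frontal cortex. The 0 of 8 is thus a result for that tissue and not for the layer in which neurons were seen to die. Of the members, 5 were higher and 3 lower in depleted mice, with a median log2 difference of 0.13, which was 0.01 without A4; the median of all genes was -0.01. The adjusted p-values of the members ran from 0.517 for Mcl1 to 0.925 for Bcl2l1, and over the alternatives from 0.230 for Mcl1 to 0.987 for Bax. When 200 genes were given a log2 change of 1 in a simulation with these means, 81.5% of them were recovered. On the log2(FPKM + 1) scale that size is more than a doubling, above all for low genes, so the simulation does not bear on smaller changes. The simulation also gave both groups the same spread per gene and drew genes independently. In these data, depleted mice were more spread in 75.7% of genes, and A4 was often the extreme mouse. The share recovered therefore does not carry over to this fit or to the 0 of 8 found here. The limma p-values set the group difference against the spread within the groups of these 6 mice, moderated toward a trend over all genes. The groups were fully apart in 1 of 8 members, Bid, against 17.6% of all genes.

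**Figure D1:**
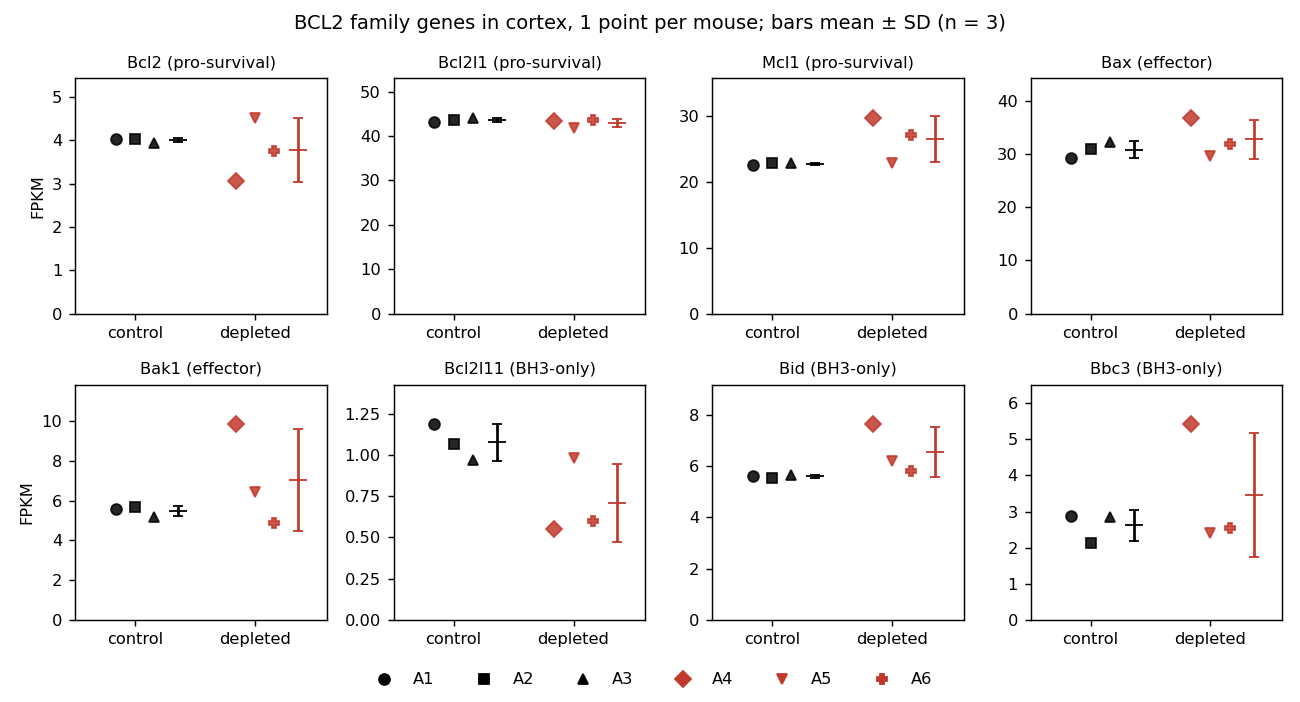
FPKM of the 8 genes (vertical axes, from 0) in each of 3 control mice (black) and 3 depleted mice (red), with the mean ± SD beside the points. Control mice lie close together in most panels, and A4 is the highest mouse in 5 genes and the lowest in 2.

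Among the pro-survival genes, Bcl2l1 (chromosome 2, 152780668 to 152831728, minus strand on GRCm38) stayed within a narrow range. It was 43.2, 43.7 and 44.1 FPKM in the control mice A1 to A3 and 43.4, 41.9 and 43.6 in the depleted mice A4 to A6. The groups overlapped, with A5 alone below the control mice, and the coefficient of variation was 1.10% in control and 2.16% in depleted mice, the smallest of the 8 genes in the latter. The log2 difference was -0.02 (standard error 0.0664, 95% interval -0.17 to 0.13, adjusted p = 0.925 in limma).

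Bcl2 (chromosome 1, 106538178 to 106714274, minus strand) was at 4.02, 4.03 and 3.94 FPKM in A1 to A3 and at 3.05, 4.52 and 3.76 in A4 to A6. The control mice were nearly equal and the depleted mice lay on both sides of them, A4 and A6 below and A5 above. The coefficient of variation was 1.23% in control and 19.5% in depleted mice, and the difference was -0.08 on the log2 scale (standard error 0.139, interval -0.39 to 0.24, adjusted p = 0.872 in limma) and 0.04 without A4.

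Mcl1 (chromosome 3, 95658788 to 95663176, plus strand), a short-lived pro-survival protein, had the largest moderated t of the 8. It was 22.55, 22.9 and 22.8 FPKM in A1 to A3, and 29.8, 22.9 and 27.1 in A4 to A6. A4 and A6 were above every control mouse, while A5 lay inside the control range. The log2 difference was 0.21 (standard error 0.103, interval -0.03 to 0.44, unadjusted p = 0.0760, adjusted p = 0.517 in limma) and 0.12 without A4, and the exact two-sided permutation p was 0.2, where 3 mice against 3 give no p below 0.1. Without A5, the shallowest library, its unadjusted p in limma was 0.00882, and its adjusted p over all alternatives ran from 0.230 to 0.896. The genes whose log2(FPKM + 1) followed Mcl1 most closely over the 6 mice were Plcb2 (Pearson r 0.998), Tgtp2 (0.994) and Igfbp3 (0.994). Plcb2, a phospholipase C of blood and immune cells, was 0.56, 0.61 and 0.59 FPKM in control and 1.23, 0.60 and 1.03 in A4, A5 and A6, and Tgtp2, an interferon-inducible GTPase, was 0.59 to 0.71 and 2.13, 0.74 and 1.52. Igfbp3 was 4.74, 4.69 and 4.88 FPKM in control and 7.09, 4.92 and 6.31 in A4, A5 and A6. These genes were picked for their likeness to Mcl1 among all genes tested, so the order of mice they share with it is no result. The sum of microglia markers was also highest in A4 and then A6, at 221.8 and 194.4 FPKM. Below them the order differed: A1 had the next highest sum, at 169.3 FPKM, and the lowest Mcl1 of the 6 mice. Only 7 of the 11 markers were higher on average in depleted mice, and the part of microglia in the level of Mcl1 was not tested.

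The effector Bax (chromosome 7, 45461697 to 45466898, minus strand) was 29.25, 30.9 and 32.3 FPKM in A1 to A3 and 36.8, 29.55 and 31.9 in A4 to A6. A4 was above all control mice and the other 2 depleted mice lay within their range. The log2 difference was 0.08 (standard error 0.0961, interval -0.14 to 0.30, adjusted p = 0.793 in limma) and -0.0041 without A4.

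Bak1 (chromosome 17, 27019810 to 27029009, minus strand), the other effector, showed a wider spread. It was 5.57, 5.67 and 5.19 FPKM in A1 to A3 and 9.86, 6.41 and 4.86 in A4 to A6. A4 and A5 were above the control mice and A6 below them, so the depleted group enclosed the control group, with a coefficient of variation of 36.3% against 4.62%. The log2 difference was 0.27 (standard error 0.204, interval -0.20 to 0.73, adjusted p = 0.666 in limma) and 0.03 without A4, while without A6 it was 0.47 with an unadjusted p of 0.0264 in limma. Of its 2407 annotated exonic bases, 614 (25.5%) lie opposite exons of Ggnbp1, at 1.75 to 2.88 FPKM, and whether the counting used strand is not given in the sources used here.

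Bcl2l11 (chromosome 2, 128126038 to 128162547, plus strand) was the BH3-only member with a lower mean in depleted mice. It was 1.19, 1.07 and 0.97 FPKM in A1 to A3 and 0.55, 0.98 and 0.60 in A4 to A6. A4 and A6 were below every control mouse, and A5 was 0.01 FPKM above the lowest of them. The ratio of the group means was 0.659, and the log2(FPKM + 1) difference, which understates the change of a gene this low, was -0.29 (standard error 0.163, interval -0.66 to 0.09, unadjusted p = 0.114, adjusted p = 0.566 in limma) and -0.22 without A4. Without A5 the unadjusted p in limma was 0.0384. A4 and A6, the 2 low mice, were also lower than the control mice in the sum of layer IV markers (22.7 and 25.15 FPKM), and A5 was not (29.0). The control mice did not share this order: A1, the highest in Bcl2l11, had a sum of 28.86, against 30.38 in A2 and 28.89 in A3. The part of that layer in the level of Bcl2l11 was not tested.

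Bid (chromosome 6, 120891930 to 120916853, minus strand), which links death receptors to the mitochondrion after cleavage by caspase 8, was 5.61, 5.56 and 5.67 FPKM in A1 to A3 and 7.66, 6.20 and 5.81 in A4 to A6. All depleted mice were above all control mice, but A6 by only a small margin. The log2 difference was 0.18 (standard error 0.1203, interval -0.09 to 0.46, adjusted p = 0.614 in limma; exact two-sided permutation p = 0.1, the smallest that 3 against 3 can give) and 0.08 without A4. Depleted mice were all above the control mice in 8.21% of all genes and all below them in 9.38%, a pattern that 0 of the 8 members showed in the latter direction. Of 3550 exonic bases of Bid, 628 (17.7%) lie opposite exons of Bcl2l13, at 8.04 to 9.18 FPKM. The distance from Bid to Gt(ROSA)26Sor, where iDTR alleles are inserted, is 7.81 Mb, and the part of the linked segment was not tested.

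Bbc3 (chromosome 7, 16308393 to 16318205, plus strand), a classical p53 target, was 2.87, 2.12 and 2.85 FPKM in A1 to A3 and 5.43, 2.40 and 2.55 in A4 to A6. Its higher group mean came from A4, since A5 and A6 lay within the control range. The log2 difference was 0.25 (standard error 0.245, interval -0.31 to 0.81, adjusted p = 0.742 in limma) and -0.05 without A4. Over the 11 p53 genes tested A4 was the highest or lowest mouse in 54.5%, close to the share of all genes, and it was the highest in 5 and the lowest in 1. Among the genes named by the rule, A4 was the high mouse in the p53 target Cdkn1a, a cell cycle inhibitor (10.9, 11.1 and 13.0 FPKM in control; 44.6, 14.2 and 11.9 in depleted mice), and in Jun, a stress-induced transcription factor (12.8, 13.5 and 14.5 in control; 54.9, 14.45 and 15.25 in depleted mice). The adjusted p-values in limma were 0.570 for Cdkn1a and 0.579 for Jun, and their log2 differences of 0.71 and 0.73 were 0.14 and 0.12 without A4.

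**Figure D2:**
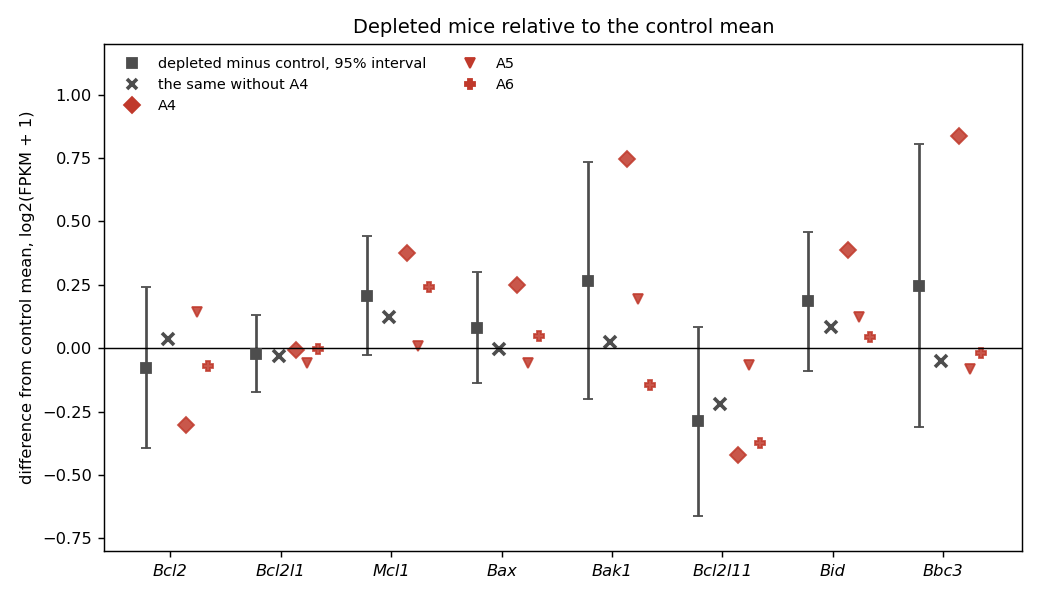
Difference from the control mean on the log2(FPKM + 1) scale (vertical axis) for the 8 genes: squares are the depleted minus control estimate with its 95% interval, crosses the estimate without A4, and red points the single depleted mice. All intervals include 0, and without A4 the estimates of Bax, Bak1, Bcl2 and Bbc3 lie between -0.05 and 0.04.

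Depleted mice were more spread than control mice in most genes, members included. The coefficient of variation was larger in depleted than in control mice in 75.7% of the 14378 tested genes with a mean above 0 in both groups, beside the shallower depleted libraries, whose part was not tested. It was larger in all 8 members, from 2.16% against 1.10% for Bcl2l1 to 49.4% against 16.4% for Bbc3. A4 was the extreme mouse in 7 of 8 members, highest in Bax, Bak1, Mcl1, Bid and Bbc3 and lowest in Bcl2 and Bcl2l11, against the 55.1% of all genes given above. This mouse had the largest sums of interferon response genes and of Y-linked transcripts and the smallest sum of erythroid genes. The part of each in these values was not tested.

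Sums by role showed the same mouse. The 3 pro-survival genes summed to 69.7, 70.7 and 70.9 FPKM in A1 to A3 and 76.3, 69.3 and 74.4 in A4 to A6. The 2 effectors summed to 34.8, 36.6 and 37.5 against 46.7, 35.96 and 36.75 FPKM, and the 3 BH3-only genes to 9.67, 8.75 and 9.49 against 13.6, 9.58 and 8.96. In each role A4 was the highest mouse and another depleted mouse lay within or below the control range. The ratio of pro-survival to effector plus BH3-only FPKM was 1.57, 1.56 and 1.51 in control mice and 1.27, 1.52 and 1.63 in A4, A5 and A6, so A4 was below and A6 above the control mice. The group means were 1.55 ± 0.0307 for control and 1.47 ± 0.187 for depleted mice (SD, n = 3 each), a difference of -0.07 that was 0.03 without A4.

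Ratios of single pairs, chosen after the values were seen and given without a test, differed in how far the groups overlapped. Bax over Bcl2, a ratio often used as an index of apoptotic priming, was 7.28, 7.67 and 8.19 in control mice and 12.1, 6.54 and 8.48 in depleted mice. Bax over Bcl2l1 was 0.678, 0.708 and 0.731 against 0.847, 0.705 and 0.732. In both, A4 was the highest mouse and A5 was below at least 1 control mouse. Mcl1 over Bcl2l1 was 0.522, 0.525 and 0.518 in control and 0.686, 0.546 and 0.622 in depleted mice. This ratio was the only one of the 4 without overlap, with means of 0.522 ± 0.00380 for control and 0.618 ± 0.0701 for depleted mice (SD, n = 3 each). The nearest mice were A5 at 0.546 and A2 at 0.525, and the groups of Mcl1 alone overlapped. Of all single genes, 17.6% had groups that were fully apart, and the share over ratios of genes was not computed.

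**Figure D3:**
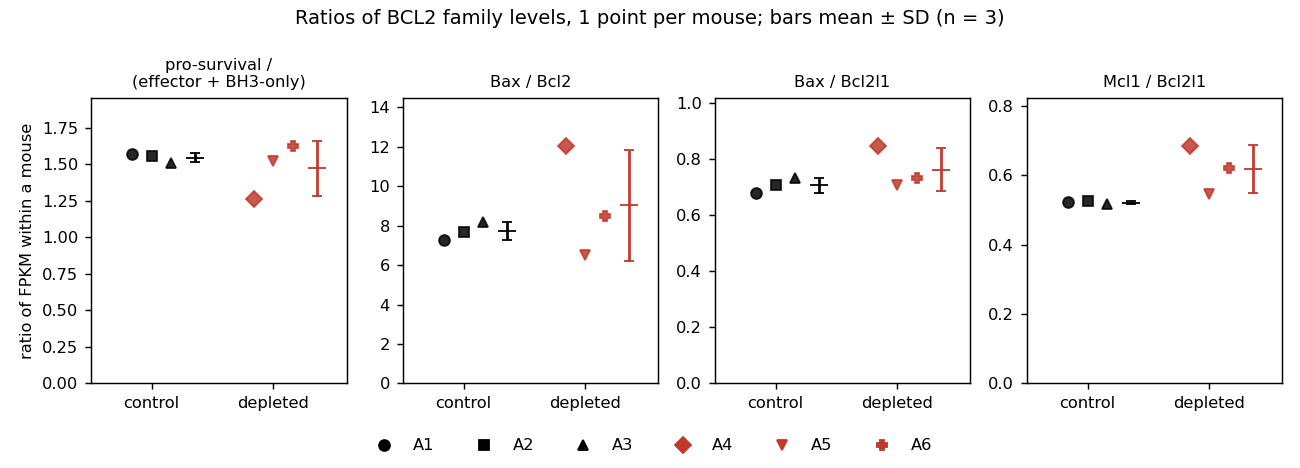
Ratios of FPKM within each mouse (vertical axes, from 0) for the role sums and 3 gene pairs, with the mean ± SD of 3 mice beside the points. The control mice are tightly grouped, and A4 is the lowest mouse for the role sums and the highest for the 3 gene pairs. Only Mcl1 over Bcl2l1, a pair chosen after the values were seen, has all 3 depleted mice above all 3 control mice.

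Downstream of the members, the caspase gene Casp6 did not pass the test either. It was 2.0, 1.44 and 1.82 FPKM in A1 to A3 and 1.93, 1.15 and 2.80 in A4 to A6 (log2 difference 0.07, standard error 0.215, adjusted p = 0.929 in limma). The groups overlapped, with A6 the highest and A5 the lowest of the 6 mice. Caspases are activated by cleavage of existing protein, which transcript levels do not report.

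The wider pathway was read through 12 lists with 93 genes, of which 80 were tested, and 0 passed the adjusted threshold. At an unadjusted p under 0.05, 5 were higher and 3 lower in depleted mice, or with the members left out the same 5 and 3 of 72 tested, against 4.79% and 5.74% of all genes. The groups did not overlap in 12 of 80, 9 of them with depleted mice above and 3 below, against 17.6% of all genes (8.21% above and 9.38% below). The median log2 difference was 0.01 over the 80 genes and -0.01 without A4. By list, medians ran from -0.07 for the apoptosome and caspases, where 4 of 6 were lower, to 0.18 for the 7 BH3-only genes tested, which was -0.03 without A4. Bcl2a1c and Tnf were at 0 in every mouse.

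Near the members in the pathway, the other genes of the BCL2 lists lay on both sides of 0, and none passed the adjusted threshold. Hrk, a BH3-only gene of neurons, was 7.60, 9.49 and 8.52 FPKM in control and 13.4, 9.57 and 11.6 in A4 to A6, with A5 only just above A2 (log2 difference 0.39, standard error 0.136, unadjusted p = 0.0207, adjusted p = 0.407 in limma; 0.28 without A4). Pmaip1, which encodes the BH3-only protein NOXA, a partner of MCL1, was 0.89, 1.03 and 0.73 against 2.69, 0.95 and 1.13 FPKM (0.40, adjusted p = 0.591 in limma; 0.12 without A4). Bok, another effector found in brain, was 36.3, 31.5 and 30.1 against 21.7, 31.6 and 22.9 FPKM (-0.37, standard error 0.143, unadjusted p = 0.0324, adjusted p = 0.440 in limma; -0.27 without A4). In Bok, A4 and A6 were below the control mice and A5 was not, the same mice as in Bcl2l11. Bcl2a1b, a pro-survival gene of blood and immune cells, was 0.77, 0.70 and 0.71 against 4.57, 0.98 and 1.45 FPKM (0.80, unadjusted p = 0.0461, adjusted p = 0.466 in limma; 0.35 without A4). It shares reads with near-identical copies, and Bcl2a1a, Bcl2a1b and Bcl2a1d together were at 1.13, 1.37 and 1.39 against 6.89, 1.44 and 1.62 FPKM. Bclaf1 (0.27, adjusted p = 0.633 in limma) and Bcl2l12 (-0.23, adjusted p = 0.846 in limma) were the extremes of the remaining BCL2 list. Bclaf1 is named for its association with BCL2 and is not a homologue. Both values depended on A4, without which they were at 0.03 and -0.67. Of 1976 exonic bases of Bcl2l12, 572 (28.9%) lie opposite exons of Gm15545, at 0.08 to 1.07 FPKM. A further overlap of 88 bases (4.45%) is opposite exons of Irf3, at 5.39 to 10.94 FPKM. The part of these overlaps was not tested.

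Downstream of the pore, the partners of the apoptosome lay on opposite sides of 0. Apaf1, the scaffold of the apoptosome, was 2.29, 2.53 and 2.34 FPKM in control and 3.85, 3.72 and 3.24 in depleted mice, all above the control mice (log2 difference 0.44, standard error 0.122, unadjusted p = 0.00637, adjusted p = 0.370 in limma), and 0.40 without A4. Cycs, cytochrome c, was 71.1, 76.0 and 70.6 against 56.2, 58.6 and 70.7 FPKM (-0.23, standard error 0.0957, unadjusted p = 0.0389, adjusted p = 0.451 in limma), where A6 lay within the control range. Birc5, an inhibitor of apoptosis protein that dividing cells use in mitosis, was 1.32, 1.18 and 1.54 against 2.34, 2.04 and 2.95 FPKM (0.55, standard error 0.153, unadjusted p = 0.00658, adjusted p = 0.376 in limma), and 0.57 without A4. For the 5 members with a higher depleted mean, the estimates without A4 lay between -0.05 (Bbc3) and 0.12 (Mcl1). Diablo, which blocks such inhibitors once released, was at -0.13 (adjusted p = 0.690 in limma). Dffa, the inhibitor of the caspase-activated DNase, was at -0.25 (adjusted p = 0.540), and Panx1, a membrane channel opened by caspases, at 0.14 (adjusted p = 0.735 in limma). These values moved with single mice: Diablo was at -0.05 without A4 and -0.20 without A1, Dffa at -0.14 without A4 and -0.41 without A6, and Panx1 at 0.28 without A4 and 0.02 without A6.

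Upstream, the receptor and p53 arms gave single genes at an unadjusted p under 0.05. Ripk1, a kinase of death receptor signalling, was 1.10, 1.25 and 1.41 FPKM in control and 1.83, 2.11 and 1.73 in depleted mice, without overlap (log2 difference 0.36, standard error 0.140, unadjusted p = 0.0321, adjusted p = 0.440 in limma; 0.37 without A4). Of 8344 exonic bases of Ripk1, 241 (2.89%) lie opposite exons of Serpinb6a, at 22.25 to 29.7 FPKM. Another gene, Gm17084, shares 511 (6.12%) on the same strand. Whether the counting used strand is not given, and the part of these overlaps in the low level of Ripk1 was not tested. Fas was at -0.15 (adjusted p = 0.879 in limma), at -0.48 without A4 and at 0.11 without A5. Phlda3, a p53 target that restrains AKT, was 23.2, 20.1 and 22.1 against 17.4, 18.45 and 16.8 FPKM, with all depleted mice below (-0.30, standard error 0.0883, unadjusted p = 0.00941, adjusted p = 0.378 in limma; -0.29 without A4). Cdkn1a and Phlda3, both p53 targets, therefore lay on opposite sides of 0. Foxo3, a regulator of Bcl2l11 and Bbc3, was at -0.16 (adjusted p = 0.697 in limma), at -0.29 without A4, at -0.03 without A6 and at -0.03 with a correction for GC content. Among proteins that set the stability of the family, Fbxo10 was lowest at -0.17 (adjusted p = 0.524) and March5 highest at 0.10 (adjusted p = 0.762), which was 0.03 without A4 and 0.22 without A5. The mitochondrial porins Vdac1 and Vdac3 were at 0.07 (adjusted p = 0.711) and 0.14 (adjusted p = 0.517 in limma).

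**Figure D4:**
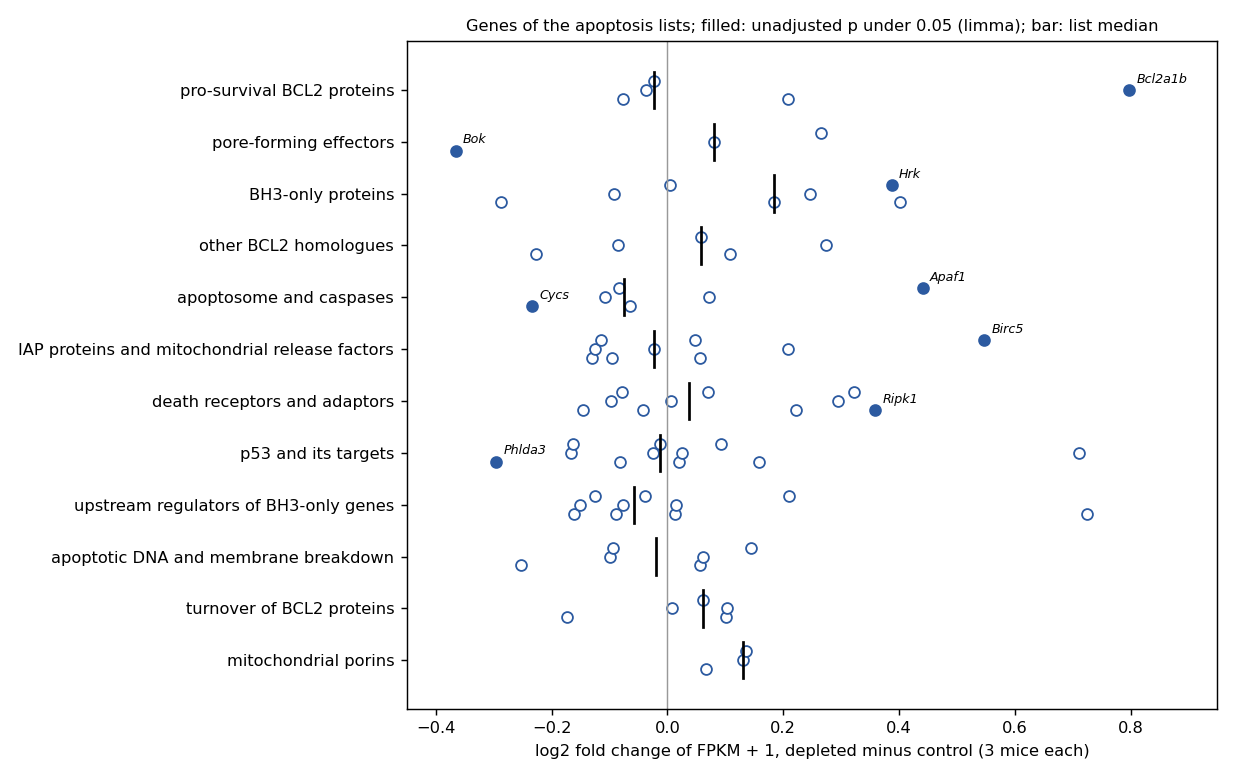
Log2 fold change of FPKM + 1, depleted minus control (horizontal axis), for the 80 tested genes of 12 apoptosis lists (rows), with filled points for an unadjusted p under 0.05 in limma and a bar at each list's median. Filled points are 5 on the right and 3 on the left, and 0 of the 80 passed the adjusted threshold.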

How the data were processed

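Cortical RNA of 3 control and 3 depleted mice was compared, with groups taken from the labels. The authors made poly(A)-selected TruSeq libraries, and the submitters' processing notes name TopHat, RSEM, DESeq and mm9, with no versions. The deposited table holds FPKM values per gene and mouse, which the authors scaled with TMM factors and rounded; it holds no counts and no coordinates, so positions come from GENCODE M21 and RefSeq on GRCm38, matched by symbol for 23005 genes, 1273 of them through an older symbol.

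Values were taken to log2(FPKM + 1) and compared for 14385 genes (mean over the mice 0.5 FPKM or more) by limma 3.58.1 in R 4.3.3 (trended eBayes, Benjamini-Hochberg, threshold 0.1), with no covariate. Fold changes on this scale understate those of low genes. The fit was tested on simulated data with equal spread in both groups and independent genes: 163 of 200 changed genes were recovered, with 22 false calls. Depth was estimated from the spacing of low values, and it limits genes near 1 FPKM in A5. Single genes also had an exact two-sided permutation test. Python 3.11.15, pandas 2.3.3, scipy 1.17.1 and matplotlib 3.10.9 were used.

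The members and lists were chosen with earlier results of these data known. Named genes are the 8 members, Casp6, the genes with the largest and the smallest change in each list, list genes with an unadjusted p under 0.05, list genes at 0 in every mouse, and the 3 genes most correlated with the member of largest moderated t. Alternatives were pseudocount, filter, scaling, eBayes options, array weights, a GC-content correction, the threshold and each mouse left out. Some genes of the pathway are not reported here.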

Additional observations from a re-analysis of the deposited data

How the results depend on the processing

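Over 16 alternatives, 0 of the 8 members and 0 pathway genes passed the adjusted threshold in limma. Members at an unadjusted p under 0.05 numbered 0 in the fit reported, 1 with eBayes without trend (Bcl2l11), 1 with the GC-content correction (Mcl1), and 0 to 2 with 1 mouse left out: Bcl2l11 and Mcl1 without A5, and Bak1 without A6. Over all genes, 4 passed the adjusted threshold, 2 with eBayes without trend, 20 with array weights and 2 to 29 with 1 mouse left out (29 without A5), and the 1515 at an unadjusted p under 0.05 became 786 to 2056. Of these, 45.5% were higher in depleted mice, and 55.2% with the GC-content correction; other scalings moved the median of all genes by at most 0.0054. Of 495 values over 31 named genes, 486 kept direction and side of the threshold and 9 changed sign: Bcl2l1 was at 0.021 with the GC-content correction and Casp6 at -0.0033 with array weights, and with 1 mouse left out Bax ran from -0.0041 to 0.15, Bcl2 from -0.19 to 0.037, Bbc3 from -0.050 to 0.41, Casp6 from -0.13 to 0.28, Bcl2l12 from -0.67 to 0.016 and Fas from -0.48 to 0.11. The cause was not tested. The filter and eBayes alternatives leave the log2 difference of a gene unchanged, so under them direction could not change. The 486 therefore includes values whose direction was fixed in advance, and it overstates how stable the directions are. A minimum mean of 1 FPKM leaves Bcl2l11 out. The pro-survival ratio differed by -0.15 to 0.03 with 1 mouse left out. No paired analysis was possible because the labels give no litter or pairing.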
